A study of Mus musculus with 8 samples.

Results

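RNA sequencing of astrocyte cultures and neural stem cells (NSCs) was examined for 10 mouse genes of leukocyte recruitment. They were the chemokine ligands Cxcl15, Cxcl12, Cxcl1, Cx3cl1, Ccl2 and Ccl7, the cytokine gene Il6, the prostaglandin enzyme gene Ptgs2 and the adhesion receptor genes Icam1 and Vcam1. Each symbol was matched to 1 Ensembl identifier among the 40562 genes of the astrocyte table and the 47729 genes of the NSC table, and all 10 genes were found in both. The 10 genes were chosen by their measured differences in these libraries, so their values in both genotype comparisons are a description and carry no test. S89G-DMP1 mice are homozygous for a knock-in allele of Dmp1, dentin matrix protein 1, in which serine 89 is replaced by glycine and the protein loses the site of its glycosaminoglycan chain. The allele was made in C57BL/6J embryonic stem cells, its selection cassette was removed by a cross to FLP mice, and wild type (WT) C57BL/6 mice without this history were the controls. Astrocytes came from the cortex and were grown in medium with serum, with 1 library per genotype. NSCs came from the subventricular zone and were grown as neurospheres without serum, with 3 libraries per genotype. Every sample is labelled as 10 weeks old, and the methods give 3 months and both sexes for the mice used for astrocyte culture. Nothing in the labels says that the 3 libraries of a genotype came from separate mice or cultures, so tests among NSCs measure the spread between these libraries only, which may be technical.

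Chemokines are small secreted proteins that bind G protein-coupled receptors and direct the movement of leukocytes and neural cells. Members with the ELR motif, such as Cxcl1 and Cxcl15, attract neutrophils through Cxcr2, whereas Cxcl12 acts through Cxcr4 and is scavenged by Ackr3, Ccl2 and Ccl7 attract monocytes through Ccr2, and Cx3cl1 is a membrane-tethered chemokine whose receptor Cx3cr1 marks microglia. Icam1 and Vcam1 are adhesion receptors of the immunoglobulin family that hold leukocytes by the integrins LFA-1 and VLA-4, and both are known on inflamed endothelium and on reactive astrocytes. Il6 signals through Il6ra and the shared subunit Il6st, and Ptgs2, cyclooxygenase 2, makes the precursor from which prostaglandin E2 and prostacyclin are formed. Transcription factors of the NF-kB family are textbook activators of many of these genes.

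Genes of the group lie in 2 small clusters and at single loci, given here as GRCm38 positions of GENCODE M21. Cxcl15 (chr5:90794534-90803067) and Cxcl1 (chr5:90891241-90893115) are both on the plus strand of chromosome 5, 88173 bases apart with no protein-coding gene between them. Ccl2 (chr11:82035571-82037453) and Ccl7 (chr11:82045712-82047525) are neighbours on the plus strand of chromosome 11, 8258 bases apart. The others are Il6 (chr5:30013114-30019981), Cxcl12 (chr6:117168535-117181367), Cx3cl1 (chr8:94772009-94782427), Ptgs2 (chr1:150100031-150108227) and Icam1 (chr9:21015985-21028817), all on the plus strand, and Vcam1 (chr3:116109949-116129688) on the minus strand. Annotated genes on the opposite strand overlap Cxcl15, Ccl2, Icam1 and Vcam1, and reads of the pair cannot be told apart where counting did not use strand. Of the 50-base stretches in the transcripts of Icam1, 13.1% also occurred in other genes, against at most 0.53% for the other 9 members.

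RefSeq promoter windows of 300 bases, from 250 before to 50 after the gene's start on GRCm38.p6, were found for 7 of the 10 members. The windows were searched on both strands for the 10-base NF-kB consensus and for TATAAA. The NF-kB consensus occurred in 8.46% and TATAAA in 13.6% of the 32851 windows of all genes. Among the 7 members, Cxcl1 and Il6 held the NF-kB consensus, and Cxcl15, Cx3cl1 and Icam1 held TATAAA, while neither motif was found in the windows of Cxcl12 and Ptgs2. The TATAAA of Cx3cl1 ran from 6 to 1 bases before the start, and that of Icam1 lay after the start, at positions 14 to 19. The last 100 bases before the start are shown for the NF-kB matches of Cxcl1 and Il6, which had more reads in WT astrocytes, and for Cxcl15, the other ligand of the chromosome 5 cluster, which had reads in S89G-DMP1 astrocytes and none in WT. Capitals mark the motif, which in Cxcl1 is a pair of overlapping matches on opposite strands from 71 to 61 bases before the start, in Il6 a match from 44 to 35 bases before the start, and in Cxcl15 TATAAA from 27 to 22 bases before the start.
Cxcl1 (chr5:90891145-90891244, plus strand): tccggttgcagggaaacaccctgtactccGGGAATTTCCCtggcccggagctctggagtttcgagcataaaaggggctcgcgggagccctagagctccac
Il6 (chr5:30013014-30013113, plus strand): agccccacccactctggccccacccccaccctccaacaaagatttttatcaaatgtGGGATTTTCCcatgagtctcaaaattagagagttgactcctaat
Cxcl15 (chr5:90794434-90794533, plus strand): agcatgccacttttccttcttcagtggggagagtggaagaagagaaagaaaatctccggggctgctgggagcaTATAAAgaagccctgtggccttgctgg
The neighbouring Cxcl15 and Cxcl1 thus differed in which of these motifs their windows held. A match is a description of the letters and not a binding site.

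The astrocyte libraries held 13016924 (S89G-DMP1) and 14008670 (WT) counts, and the NSC libraries between 2354615 and 2588130. Dmp1 itself had 119 counts in S89G-DMP1 and 2 in WT astrocytes, and 3 to 6 in S89G-DMP1 against 16 to 21 in WT NSCs, which does not check a point mutation. The library labelled WT astrocytes was low in defining astrocyte genes, with 8 counts of Aqp4, 8 of Slc1a3 and 90 of Gfap against 4051, 3877 and 901 in the S89G-DMP1 library. Its 15 astrocyte markers summed to 577 against 2008 CPM, read counts scaled to library size. Of these markers, 14 had 10 or more counts in 1 of the libraries, 12 of them higher in S89G-DMP1 and 2 lower. The 2 were Glul (4247 counts in WT and 3709 in S89G-DMP1) and S100b (64 and 30). Glul alone gave 335 CPM of the WT sum. Markers of fibroblasts and meningeal cells summed to 6875 (WT) and 2472 CPM (S89G-DMP1) (17 of 20 with at least 10 counts in each). Of the 18 with 10 or more counts in 1 of the libraries, 5 were higher in S89G-DMP1 and 13 lower. Endothelial markers summed to 1141 and 121 CPM (11 and 10 of 14), with Cldn5 at 0 in both. Eng alone gave 930 CPM of the WT endothelial sum, Cdh5 had 1917 (WT) and 23 (S89G-DMP1) counts, and other endothelial markers were higher in S89G-DMP1, such as Slco1a4 (95 and 491) and Flt1 (404 and 790), with 5 of 12 higher and 7 lower in all. Mural markers summed to 3401 and 4069 CPM (10 and 9 of 12, Kcnj8 and Higd1b at 0 in both), with Pdgfrb at 11765 and 2276 counts and Acta2 at 9152 and 35539. Acta2 alone gave 2468 CPM of the S89G-DMP1 mural sum. Of the 10 mural markers with 10 or more counts in 1 of the libraries, 2 were higher in S89G-DMP1 and 8 lower. All 18 markers of microglia and macrophages had at least 10 counts in both, with sums of 1350 (WT) and 1941 CPM (S89G-DMP1). Neural stem and progenitor markers summed to 3531 and 6352 CPM, neuronal markers to 99.0 and 302 CPM and oligodendrocyte markers to 49.6 and 91.9 CPM. Xist had 12172 counts in WT and 74 in S89G-DMP1 astrocytes and Ddx3y 0 and 1277, so sex and genotype cannot be told apart there. The part of cell makeup in the astrocyte differences was not tested, and in a bulk library fewer cells of a type and less RNA per cell cannot be told apart. All 6 NSC libraries held the stem cell markers Sox2 (747 to 890 counts) and Nes (4572 to 5460), carried Xist (2718 to 3001 counts) and Ddx3y (45 to 77), and had 11 of the 18 microglia markers at 0, Cx3cr1, Csf1r and C1qa included.

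**Figure D1:**
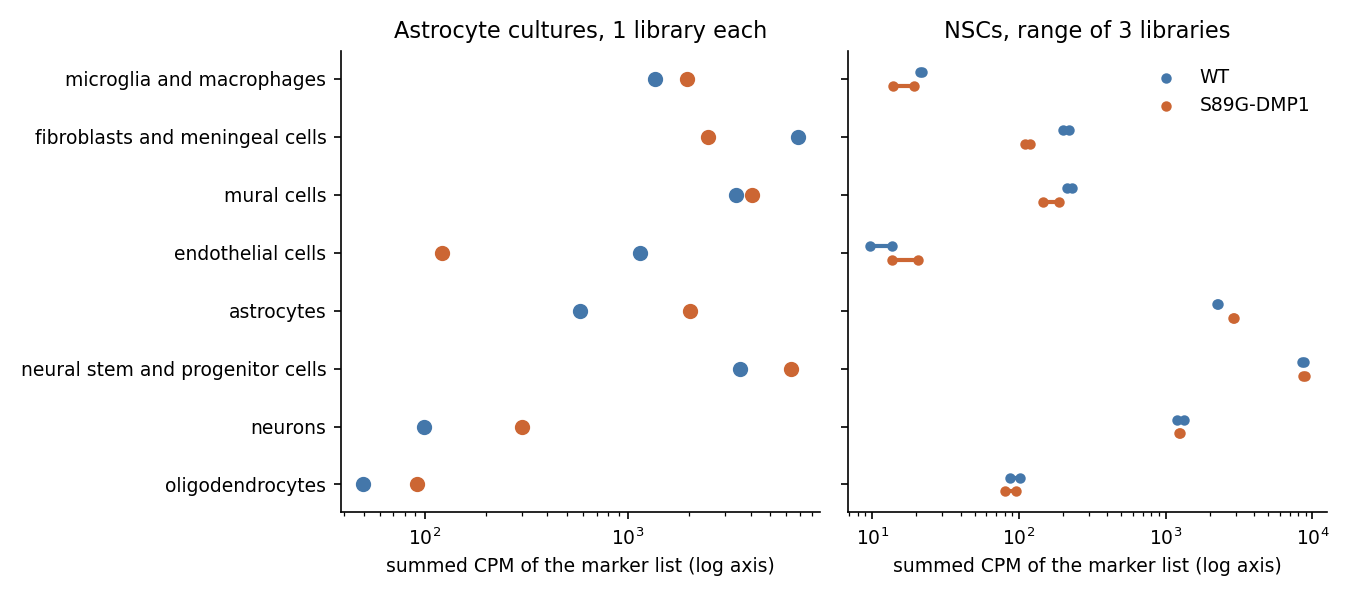
Summed CPM of 8 marker lists on log axes, as 1 point per astrocyte library on the left and as the range of the 3 NSC libraries of each genotype on the right. Among astrocyte cultures, WT (blue) lies above S89G-DMP1 (orange) for fibroblast and meningeal markers (6875 against 2472 CPM) and endothelial markers (1141 against 121 CPM), and below it for astrocyte markers (577 against 2008 CPM).

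In astrocytes, 8 members had fewer reads per scaled library in S89G-DMP1 than in WT and 2 had more. Cxcl15 and Cx3cl1 were at least 2-fold higher, and Cxcl12, Cxcl1, Ccl2, Ccl7, Il6, Ptgs2 and Icam1 at least 2-fold lower, while Vcam1 lay within 2-fold. A gene was taken to have enough reads where 1 of the libraries held 10 or more counts, which 15680 genes did. Of these, 17.3% were higher by 2-fold or more and 12.8% lower by as much, and since these differences chose the members nothing is read from the count. The median log2 ratio was -3.28 over the 10 members, also with Cxcl15 at its bound, and 0.01 over all 15680 genes. Scaling by TMM, which sets the scale by the bulk of genes, was the main choice. With library size alone the median of all genes was 0.30, and the split of 2-fold genes went from 2713 higher and 2010 lower to 3487 and 1515. With 1 library per genotype no test was possible, and each interval below is an exact binomial (Clopper-Pearson) 95% interval that covers counting error only. 

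The order of the members by length-corrected level was different in each library. In the deposited FPKM values, which correct for gene length, WT astrocytes had Ptgs2 highest at 249 FPKM, then Cxcl12 at 116, Icam1 at 65.0, Vcam1 at 55.2, Cx3cl1 at 46.8, Ccl7 at 36.7, Ccl2 at 24.9, Il6 at 11.9 and Cxcl1 at 2.33, with Cxcl15 at 0. S89G-DMP1 astrocytes had Cx3cl1 highest at 201 FPKM, then Cxcl15 at 62.7, Vcam1 at 59.6, Ptgs2 at 13.1, Cxcl12 at 8.22, Icam1 at 5.63, Ccl2 at 4.34, Ccl7 at 1.25, Cxcl1 at 0.871 and Il6 at 0.181. Ptgs2 and Cxcl12, which led in WT, thus stood behind Cx3cl1, Cxcl15 and Vcam1 in S89G-DMP1. The spread between libraries of 1 genotype is unknown, so whether neighbours in either order differ was not tested.

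**Figure D2:**
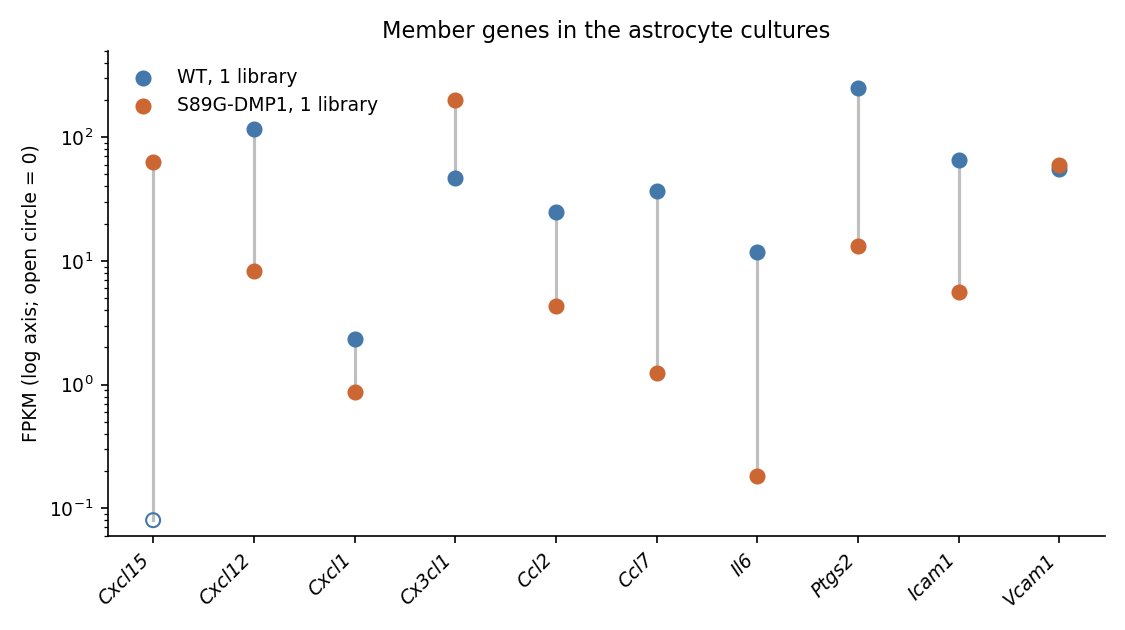
Deposited FPKM of the 10 members in the WT (blue) and S89G-DMP1 (orange) astrocyte library on a log axis, with a line joining the pair and an open circle for 0. Cx3cl1 and Cxcl15 are higher in S89G-DMP1 (201 and 62.7 FPKM), 7 members are lower, and the points of Vcam1 lie together (59.6 and 55.2 FPKM, slightly higher in S89G-DMP1 on this scale and slightly lower under TMM).

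The CXC ligands differed in direction. Cxcl15, an ELR chemokine best known from lung epithelium, had 1735 counts in S89G-DMP1 and 0 in WT astrocytes, or 120 and 0 CPM. Set against 3 counts in the WT library, it was at least 508-fold higher, and the exact interval of the ratio started at 413-fold. Cxcl1, the neutrophil chemokine of the same chromosome 5 cluster, had 16 counts in S89G-DMP1 and 46 in WT. It was 3.27-fold lower (interval 1.82 to 6.19), and both libraries held few reads of it. Cxcl12, the ligand that retains progenitors and leukocytes at stromal niches, had 362 counts in S89G-DMP1 and 5521 in WT, or 25.1 and 436 CPM. The S89G-DMP1 level was 17.3-fold lower (interval 15.6 to 19.3). Of the 12 other CXC chemokines, 7 had enough reads, 3 of them were 2-fold or more higher and 3 lower by as much, and their median log2 ratio was -0.99. Cxcl5, which also lies in the chromosome 5 cluster, had 28 counts in S89G-DMP1 and 0 in WT, at least 8.21-fold higher. Pf4, platelet factor 4, had 51 and 208 counts and was 4.64-fold lower. Cxcl2 had 6 and 25 counts, Ppbp 1 in each, and Cxcl3 0 in both.

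On the receptor side, Cxcr4, the signaling receptor of Cxcl12, had 783 counts in S89G-DMP1 and 124 in WT astrocytes. Its log2 ratio was 2.46, so the receptor was higher in the library where the ligand was lower. The scavenging receptor Ackr3 had 125 and 187 counts, a log2 ratio of -0.76. Cxcr2, the receptor of ELR chemokines, and Ccr2, the receptor of Ccl2 and Ccl7, had at most 1 count in either library, under the 3 counts that a reading of 0 allows. Of 23 chemokine receptors, 11 had enough reads, with 4 of them 2-fold or more higher, 3 lower by as much and a median log2 ratio of 0.47.

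The CC ligands were both lower in S89G-DMP1 astrocytes. Ccl2, the main monocyte chemokine, had 54 counts in S89G-DMP1 and 333 in WT, or 3.75 and 26.3 CPM. It was 7.01-fold lower (interval 5.25 to 9.53). Its neighbour Ccl7 had 13 and 412 counts, or 0.903 and 32.5 CPM. It was 36.1-fold lower (interval 20.8 to 68.3), so the interval of Ccl7 lay above that of Ccl2. Among the 17 other CC and C chemokines, 9 had enough reads, none was at least 2-fold higher and 4 were at least 2-fold lower (3 with library size alone), with a median log2 ratio of -0.11 that became 0.16 with library size alone. Ccl6, made by myeloid cells, had 28 counts in S89G-DMP1 and 243 in WT, a log2 ratio of -3.21. In the cluster of Ccl2 and Ccl7, Ccl8 had 0 and 13 counts, Ccl12 24 and 14, Ccl11 3 and 1, and Ccl1 0 in both. The microglial chemokines Ccl3 (112 and 103 counts) and Ccl4 (65 and 60 counts) lay within 2-fold, named here after their values were seen.

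Cx3cl1, fractalkine, had 3393 counts in S89G-DMP1 and 849 in WT astrocytes, or 236 and 67.1 CPM. It was 3.51-fold higher in S89G-DMP1 (interval 3.26 to 3.79). Its receptor Cx3cr1 had 2372 and 320 counts and was 6.52-fold higher (interval 5.80 to 7.35), whereas the other microglial genes Csf1r (3522 and 2423 counts) and Ptprc (651 and 505 counts) had log2 ratios of 0.35 and 0.18. The enzymes that shed Cx3cl1 from the membrane lay within 2-fold, with Adam10 at 3816 and 3300 counts and Adam17 at 1437 and 859. None of the 4 shedding genes was at least 2-fold apart, and their median log2 ratio was 0.53 (0.82 and 1 gene past 2-fold with library size alone).

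Il6 had 3 counts in S89G-DMP1 and 212 in WT astrocytes, or 0.208 and 16.7 CPM. It was 80.4-fold lower in S89G-DMP1, with a counting interval from 27.1 to 393 that is wide because of the 3 reads. Its receptor genes did not share this difference. Il6st, the shared signaling subunit, had 6486 and 5421 counts, a log2 ratio of 0.07, and Il6ra had 626 and 246, a log2 ratio of 1.16.

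Cytokines of the Il6 family and others differed in both directions. Il11, which also signals through Il6st, had 16 counts in S89G-DMP1 and 611 in WT, a log2 ratio of -5.27. Lif, another ligand of Il6st, had 225 and 1026 counts, a log2 ratio of -2.36, and Clcf1, a further one, had 2772 and 423, a log2 ratio of 2.52. Il33, a nuclear alarmin, stood at 4502 counts in S89G-DMP1 and 6 in WT, 660-fold higher (interval 303 to 1798). Il34, a ligand of Csf1r, had 95 and 901 counts, a log2 ratio of -3.40. Of the 21 genes of this list with enough reads, 4 were 2-fold or more higher and 5 lower by as much, which became 5 and 3 with library size alone.

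Ptgs2 had 410 counts in S89G-DMP1 and 8404 in WT astrocytes, or 28.5 and 664 CPM, the largest CPM of any member in either library. It was 23.3-fold lower in S89G-DMP1 (interval 21.1 to 25.8). Several enzymes before and after Ptgs2 in prostaglandin synthesis were also lower. Pla2g4a, which frees arachidonic acid, had 362 and 1844 counts, a log2 ratio of -2.53, and Ptgs1, cyclooxygenase 1, had 331 and 3718, a log2 ratio of -3.67. Ptges, the inducible prostaglandin E synthase, had 104 and 4959 counts and was 54.2-fold lower, and Ptgis, the prostacyclin synthase, had 25 and 1457 and was 66.3-fold lower. The prostaglandin transporter gene Slco2a1 had 205 and 2718 counts, a log2 ratio of -3.90. The E synthases that are not inducible lay within 2-fold, Ptges2 at 189 and 191 counts and Ptges3 at 1914 and 1671. The receptor gene Ptgfr went the other way, with 83 and 12 counts and a log2 ratio of 2.43. Of 16 genes with enough reads, 2 were 2-fold or more higher and 7 lower by as much (3 and 6 with library size alone), with a median log2 ratio of -0.41.

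Of the adhesion receptors, Icam1 was lower in S89G-DMP1 astrocytes and Vcam1 lay within 2-fold. Icam1, the ligand of LFA-1, had 186 counts in S89G-DMP1 and 2313 in WT astrocytes, or 12.9 and 183 CPM. It was 14.1-fold lower (interval 12.2 to 16.5). Vcam1, the ligand of VLA-4, had 2101 and 2096 counts, with a log2 ratio of -0.18 under TMM and 0.11 with library size alone, so its direction depends on the scale. The counter-receptor genes of Icam1, Itgal (590 and 606 counts) and Itgb2 (796 and 798), lay within 2-fold, as did those of Vcam1, Itga4 (208 and 271) and Itgb1 (23401 and 33724). Of 23 adhesion genes with enough reads, 5 were 2-fold or more higher and 3 lower by as much, which became 8 and 1 with library size alone. Among those with 50 or more counts in 1 of the libraries, the furthest apart were Itgax, an integrin of dendritic cells and macrophages, at 3 and 88 counts (33.4-fold lower, interval 11.1 to 165), Ezr, which links membrane receptors to actin, at 6836 and 729 counts (log2 ratio 3.04), and Cd34, a selectin ligand, at 628 and 81 counts (log2 ratio 2.74).

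**Figure D3:**
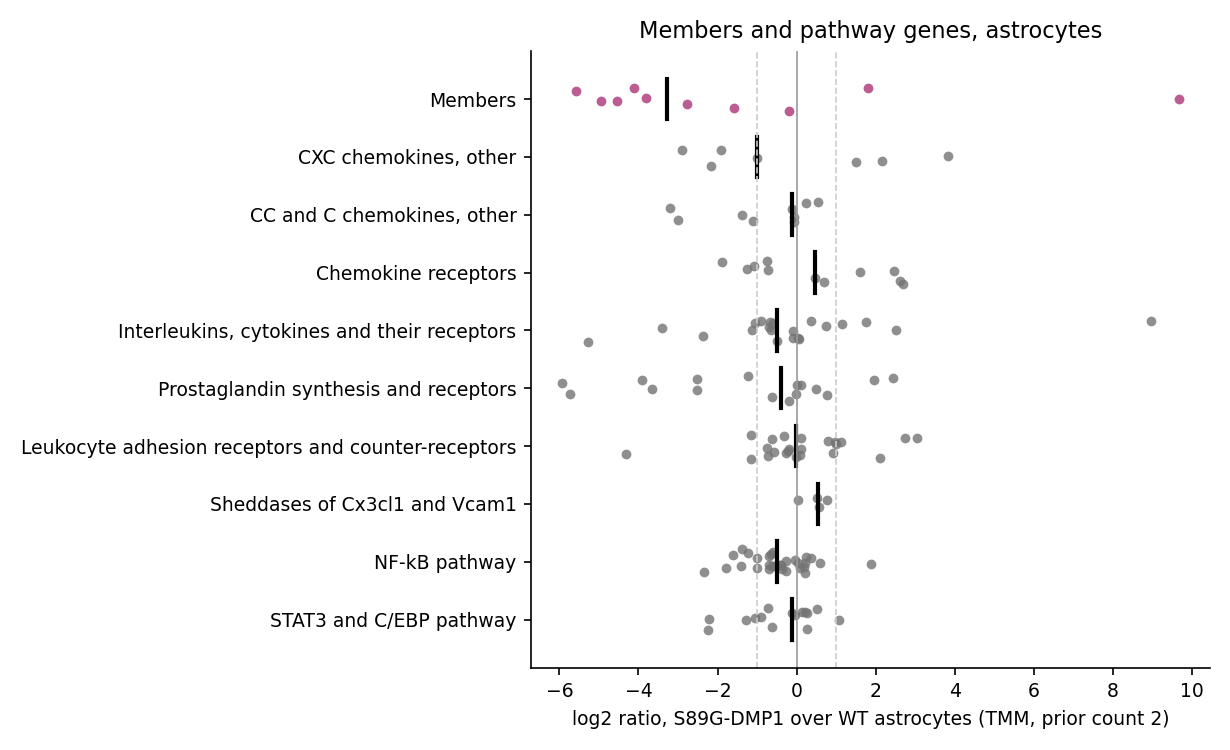
Log2 ratio of S89G-DMP1 over WT astrocytes for the 10 members (purple) and the genes of 9 pathway lists (grey) that had 10 or more counts in 1 of the libraries, with a bar at each median and dashed lines at 2-fold. The members lie mostly to the left with a median of -3.28, Cxcl15 stands alone at 9.67 (a value set by the prior count, since WT had 0 counts), and the list medians lie between -0.99 and 0.53.

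Genes of the NF-kB and STAT3 pathways differed in both directions in astrocytes. Over all 15680 genes with enough reads, 17.3% were 2-fold or more higher and 12.8% lower by as much. All 30 NF-kB pathway genes had enough reads, 1 was 2-fold or more higher and 6 were lower by as much, and the median log2 ratio was -0.49 (-0.20 with library size alone). Rela, the main activating subunit, had 1116 counts in S89G-DMP1 and 1530 in WT, and the feedback inhibitor Nfkbia had 490 and 517, both within 2-fold and chosen after their values were seen. Tlr4, the receptor of bacterial lipopolysaccharide, had 189 and 857 counts, a log2 ratio of -2.35. Of 15 STAT3 and C/EBP genes, 1 was 2-fold or more higher and 4 were lower by as much (1 and 2 with library size alone). Cebpb, an activator of Il6 and Ptgs2 by textbook accounts, had 194 and 809 counts, a log2 ratio of -2.23, and Fosl1, an AP-1 subunit, had 148 and 608, a log2 ratio of -2.21. Over the 136 pathway genes of all lists with enough reads, 20 were 2-fold or more higher and 35 lower by as much, and 26 and 25 with library size alone.

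In NSCs most members had no or few reads. Cxcl15, Cxcl1 and Il6 had 0 counts in all 6 libraries, which allows up to 3 counts or 1.16 to 1.27 CPM per library. Cxcl12 had 0, 2 and 2 counts in S89G-DMP1 and 2, 1 and 5 in WT, and Ptgs2 had 1, 3 and 0 against 1, 2 and 1. Ccl7 had 0 counts in the 3 S89G-DMP1 libraries and 0, 1 and 2 in WT, and Icam1 had 0, 1 and 0 against 4, 2 and 1. Ccl2 had 4, 3 and 7 counts in S89G-DMP1 and 1, 3 and 2 in WT, so the groups met at 3 counts. These 8 genes were below the filter on low counts and were not tested, and a difference was not detectable at this depth. The receptor genes of Cxcl12 also fell below the filter, with 3, 1 and 4 counts of Cxcr4 in S89G-DMP1 and 9, 6 and 7 in WT, and 5, 1 and 4 of Ackr3 against 15, 19 and 8. For both genes every WT library lay above every S89G-DMP1 library. This was not tested, and how often genes separate in this way over all genes was not counted. Both genes were named after their values were seen.

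**Figure D4:**
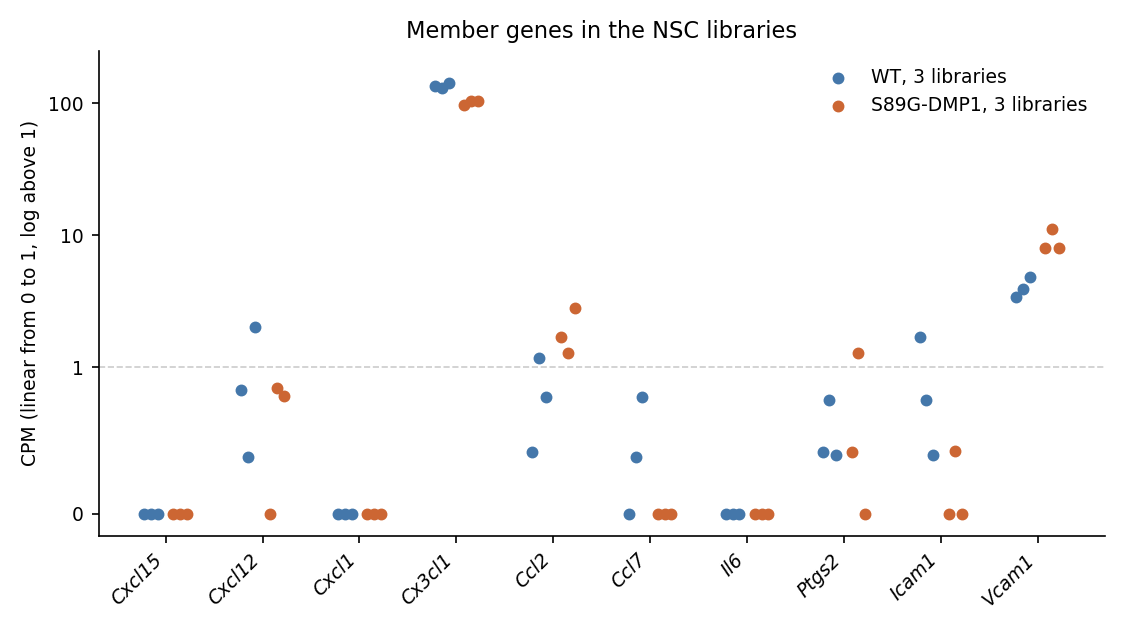
CPM of the 10 members in each of the 6 NSC libraries, on an axis that is linear from 0 to 1 and logarithmic above. Cx3cl1 lies near 100 CPM and is lower in the 3 S89G-DMP1 libraries (97.3 to 104) than in the 3 WT libraries (131 to 143), Vcam1 is higher in S89G-DMP1 (8.0 to 11.1 against 3.37 to 4.79), and the other members stay under 3 CPM.

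Cx3cl1 and Vcam1 alone among the members passed the filter, and they went in opposite directions. Cx3cl1 had 231, 243 and 260 counts in S89G-DMP1 and 318, 336 and 358 in WT NSCs, or 102 ± 3.95 and 136 ± 6.42 CPM (SD, n = 3). The S89G-DMP1 libraries were all lower and the groups did not overlap. The log2 fold change was -0.41 with a standard error (SE) of 0.08, a level 1.33-fold lower in S89G-DMP1. Vcam1 had 19, 26 and 20 counts in S89G-DMP1 and 8, 10 and 12 in WT, or 9.05 ± 1.80 and 4.02 ± 0.720 CPM (SD, n = 3). All S89G-DMP1 libraries lay above all WT libraries, with a log2 fold change of 1.15 (SE 0.30), a level 2.23-fold higher. By edgeR's quasi-likelihood test at an adjusted p of 0.05, 1 member counted as higher and 1 as lower, and of the 11194 genes tested 7.08% were higher and 8.76% lower. The same values chose the members, so nothing is read from these counts. Without S89G-DMP1 library 2, Vcam1 (log2 fold change 0.98) no longer passed, nor did it with DESeq2. Corrected for exonic length, Cx3cl1 stood at 25.9 (S89G-DMP1) and 34.6 (WT) CPM per kilobase, and Vcam1 at 1.02 and 0.453.

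Integrins that bind Vcam1 fell in S89G-DMP1 NSCs, by edgeR's quasi-likelihood test adjusted over all 11194 genes. Itga4, the alpha 4 subunit of VLA-4, had 208, 206 and 200 counts in S89G-DMP1 and 636, 701 and 673 in WT. The groups lay far apart, with a log2 fold change of -1.66 (SE 0.07, edgeR adjusted p = 1.9e-29). Itga9, the alpha 9 subunit that also binds Vcam1, had 11, 10 and 13 counts against 27, 46 and 39, a log2 fold change of -1.66 (SE 0.26, edgeR adjusted p = 1.3e-06). Itgb1, the beta 1 subunit that pairs with both, fell by 0.14 on the log2 scale (edgeR adjusted p = 0.042), at a high level of 1649 to 2139 counts per library. The call of Itgb1 was not examined under other settings. Each alpha subunit was thus 3.16-fold lower and the shared beta subunit 1.10-fold lower. Marker lists differed between the same libraries, with the 20 fibroblast and meningeal markers at 111 to 119 CPM in S89G-DMP1 against 200.1 to 220 in WT, mural markers at 145 to 187 against 213 to 232, and astrocyte markers at 2871 to 2929 against 2235 to 2280. Single genes that NSCs can also carry made most of the first 2 sums, Thy1 with 65.5 to 76.2 CPM in S89G-DMP1 and 148 to 157 in WT, and Cspg4 with 107 to 131 against 172 to 176. Col1a2 and Dcn were at 0 in all 6 libraries, Pdgfrb, Rgs5 and Acta2 had at most 2 counts in any, and the part of these differences in the adhesion genes was not tested.

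Of the 28 genes of leukocyte adhesion, 12 were tested, 2 rose and 7 fell, and the median log2 fold change was -0.17 against 0.00 over all genes tested. Mcam, an adhesion receptor of vessels and pericytes, fell by 1.01 on the log2 scale (38, 43 and 50 counts against 90, 86 and 98, edgeR adjusted p = 3.3e-07). Alcam, Jam2 and Msn, a pair of immunoglobulin adhesion receptors and a linker to actin, fell by 0.38, 0.26 and 0.19 on the log2 scale. Ezr, also a linker of adhesion receptors to actin, rose with a log2 fold change of 0.95 (39, 47 and 36 counts against 20, 22 and 23, edgeR adjusted p = 0.00074), and the third linker of this family, Rdx, rose by 0.19. On the deposited TPM values, limma kept the calls of Mcam and Lif among the 16 genes examined under other settings. Those of Cx3cl1, Vcam1 and the 12 others were lost. The calls of Alcam and Rdx were lost in DESeq2, that of Alcam also without WT library 1 (log2 fold change -0.24), and that of Rdx also without S89G-DMP1 library 3 (0.14), WT library 2 (0.18) or WT library 3 (0.17).

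**Figure D5:**
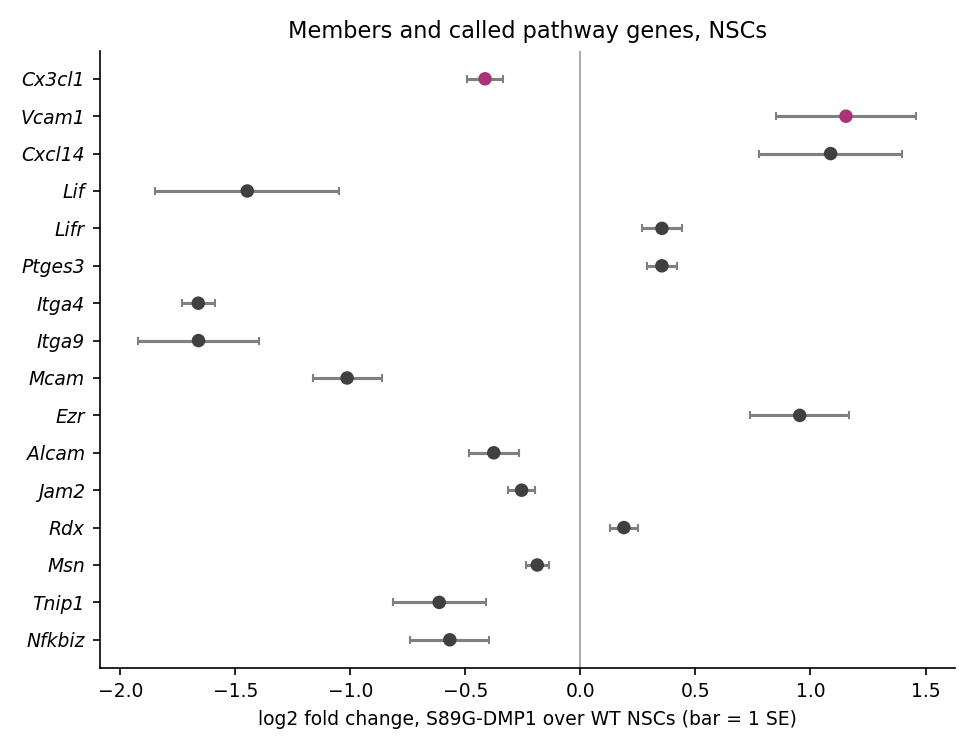
Log2 fold change of S89G-DMP1 over WT NSCs with 1 SE (n = 3 libraries per genotype) for Cx3cl1 and Vcam1 (purple) and 14 of the 15 pathway genes past an adjusted p of 0.05 (dark grey). Itgb1 is not drawn. Vcam1 lies at 1.15, its integrin subunits Itga4 and Itga9 both at -1.66, and Cx3cl1 at -0.41.

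Calls in NSCs were also found among ligands and regulators. Of the 66 pathway genes tested, 5 rose and 10 fell, and 2 and 7 of these were the adhesion genes above. Over all 11194 genes tested, 7.08% were called higher and 8.76% lower. Of the 174 pathway genes, 108 were below the filter. Cxcl14, a chemokine without an ELR motif, rose with a log2 fold change of 1.09 (23, 15 and 22 counts against 8, 10 and 11, SE 0.31, edgeR adjusted p = 0.0093). It was the only tested gene of 12 other CXC chemokines, and in astrocytes it had 427 counts in S89G-DMP1 and 131 in WT. Lif fell by 1.45 on the log2 scale (5, 6 and 4 counts against 10, 18 and 15, edgeR adjusted p = 0.0065), and its receptor gene Lifr rose by 0.35 (edgeR adjusted p = 0.0017). Among 10 tested cytokine genes these were the calls, and Il6st, at 248 to 284 counts, had a log2 fold change of 0.03 (SE 0.08). Ptges3, a cytosolic prostaglandin E synthase that is also a cochaperone of Hsp90, rose by 0.35 (412 to 451 counts in WT and 514 to 533 in S89G-DMP1, edgeR adjusted p = 3e-05) as 1 of 5 tested prostaglandin genes. In DESeq2 the calls of Cxcl14 and Lif were lost. That of Cxcl14 was lost without S89G-DMP1 library 1 (log2 fold change 0.97), and that of Lif without S89G-DMP1 library 3 (-1.29) or WT library 2 (-1.28).

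Of 23 tested NF-kB genes none rose and 2 fell, Tnip1 by 0.61 and Nfkbiz by 0.57 on the log2 scale. Tnip1 restrains NF-kB signaling and had 34, 23 and 25 counts in S89G-DMP1 against 44, 44 and 42 in WT (edgeR adjusted p = 0.026). Nfkbiz is a nuclear cofactor that is needed for Il6 induction, and had 38, 39 and 37 counts against 49, 61 and 65 (edgeR adjusted p = 0.014). Their groups did not overlap. Both calls were lost in DESeq2, that of Tnip1 without S89G-DMP1 library 2 (log2 fold change -0.52) or 3 (-0.53) or without WT library 1 (-0.57) or 2 (-0.63), and that of Nfkbiz without S89G-DMP1 library 3 (-0.52) or WT library 3 (-0.49). None of the 11 tested STAT3 and C/EBP genes and none of the 3 tested shedding genes passed the test, and Adam10 and Adam17 had log2 fold changes of 0.14 (SE 0.06) and 0.07 (SE 0.08). Cebpa, named after its values were seen, had 28, 28 and 27 counts in S89G-DMP1 and 14, 22 and 18 in WT (log2 fold change 0.67, edgeR adjusted p = 0.054).

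Astrocyte and NSC tables were made with different pipelines, so levels are set side by side within each. Cx3cl1 was the member with the most reads in NSCs of both genotypes and in S89G-DMP1 astrocytes, with a log2 difference between genotypes of 1.81 in astrocytes and -0.41 in NSCs. For Vcam1 the values were -0.18 in astrocytes (0.11 with library size alone) and 1.15 in NSCs. The other 8 members were measured above the filter in astrocytes and not in NSCs, so no difference between cell types in their genotype effect can be given.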

How the data were processed

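RNA of astrocytes (2 libraries) and NSCs (6 libraries) was sequenced. For the astrocytes, the authors deposited read counts per gene and FPKM values made with TopHat 2.0.9 and Bowtie 2.0.6. For the NSCs, they deposited counts and TPM values, with HISAT2, StringTie, featureCounts and GRCm38 named in the submitters' notes. The astrocyte counter and build, the strand setting and the authors' test are not given in the sources used here. Among the 12367 genes with more than 20 counts in both libraries, FPKM followed from counts, library total and 1 length per gene within 1%. The deposited TPM values list some well counted genes at 0, so NSC levels are counts scaled by TMM. Cx3cl1, for example, has a TPM of 15.6 in S89G-DMP1 library 1 against 80.2 and 79.8 in the other S89G-DMP1 libraries, while its counts are alike.

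NSC genes were filtered with filterByExpr and tested with edgeR 4.0.16 (R 4.3.3) for the effect of genotype alone by the quasi-likelihood test, adjusted by Benjamini-Hochberg over all genes tested. Astrocytes had 1 library per genotype, so log2 ratios of TMM CPM (prior count 2) were taken without a test for genes that had 10 or more counts in 1 of the libraries. A count of 0 was set to 3 counts for a bound. Alternatives used DESeq2 1.42.0 and limma 3.58.1. On simulated NSC counts, 88 of 95 genes changed 2-fold, 73 of 100 changed by 0.5 on the log2 scale and 11 of 10866 unchanged genes were called. Numbers in the NSC labels did not pair libraries (correlations from -0.02 to 0.03).

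The 10 members and the lists were chosen with earlier results of these data known. Named are the members, list genes called in NSCs (at most 8 per list by size), list genes with at least 50 counts and 4-fold apart in astrocytes (at most 6), and marker genes. Counterparts of the members and genes named after their values were seen are additional. Lists came from general knowledge.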

Additional observations from a re-analysis of the deposited data

Results flagged for a closer look

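Cx3cl1 went in opposite directions in astrocytes and NSCs. In astrocytes the S89G-DMP1 library was higher, with a log2 ratio of 1.81 from 1 library per genotype, and in NSCs all 3 S89G-DMP1 libraries were lower than all 3 WT libraries, with a log2 fold change of -0.41. The difference between cell types was not tested, since the astrocytes have no replicates and the 2 tables come from different pipelines. Beside it, the microglial gene Cx3cr1 had 2372 counts in S89G-DMP1 and 320 in WT astrocytes and 0 in all NSC libraries, and the part of cell makeup was not tested.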

How the results depend on the processing

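For the NSCs, DESeq2 called 348 genes higher and 503 lower (792 and 981 in edgeR), 3 pathway genes higher and 5 lower (5 and 10), and 0 members higher. limma on log2(TPM + 1) called 38 and 107 genes, 0 and 2 pathway genes and 0 members in either direction, and of the 16 named NSC genes it kept the calls of Mcam and Lif. With at least 10 counts in every sample, 0 members were called higher, because Vcam1, at 8 counts in WT library 1, was left out by this filter. Leaving out 1 library in turn gave between 0 and 1 members higher. The replicate block gave 829 and 1016 genes and 6 and 10 pathway genes. It changed no call of the 16 named NSC genes, which leave out Itgb1. For the astrocytes, a 4-fold threshold left 1354 genes higher and 813 lower, 11 and 17 pathway genes, and 1 member higher. With at least 10 counts in both libraries there were 1591 genes and 1 member higher, because this filter left out Cxcl15, at 0 counts in WT. On log2(FPKM + 1) there were 1020 genes and 18 pathway genes lower. Other settings kept these counts within 1.5-fold. Of 205 repeats over 16 named NSC genes, 170 kept direction and side of the threshold, 35 lost the call and 0 reversed. In astrocytes 119 of 181 repeats stayed within the counting interval of the ratio. No ratio of 2-fold or more changed sign, while that of Vcam1, within 2-fold, went from -0.18 to 0.11 with library size alone or on FPKM. The causes were not tested. NSC depth leaves 8 members untestable, and the astrocytes have no replicates.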
